A study of Homo sapiens with 8 samples.

Results

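Autophagy is the route by which a cell wraps part of its own cytoplasm in a double membrane, the autophagosome, and delivers it to the lysosome. The ULK kinase complex starts the process, a class III phosphatidylinositol 3-kinase (PI3K) complex marks the growing membrane, ATG9 and ATG2 supply it with lipid, and small ubiquitin-like ATG8 proteins (the LC3 and GABARAP families) are joined to it by a chain of conjugating enzymes. Receptor proteins such as p62 tie cargo to the ATG8 proteins, and FOXO transcription factors are known activators of several of these genes. Autophagy has been described in cells that lose contact with the matrix, where it is thought to help them survive.

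The genes described here are 40 members of this machinery, taken as a list of symbols and matched to array probe sets that carry 1 gene symbol in the platform annotation. All 40 had such a probe set, among 18417 genes tested. The samples were cultures of BT549, an established human triple-negative breast cancer cell line, grown in medium with serum and insulin. In 4 attached cultures the cells grew on ordinary tissue culture plates, and in 4 suspended cultures they were kept on poly-HEMA-coated plates, a surface that gives cells no hold. The series calls the 4 samples of each condition biological replicates, and all come from this 1 line. Suspended cultures lasted 24 h. For attached cultures one label field gives 24 h and another 48 h, so that a difference in culture time cannot be told apart from the difference in attachment if the longer time holds. The labels name no genetic change or drug that separates the groups. The comparison asks which of these transcripts differ when the cells are kept from attaching.

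The values are log2 signals, and every difference below is the suspended mean minus the attached mean on that scale, tested with limma and called past a Benjamini-Hochberg adjusted p of 0.05 over all genes. Array medians lay between 6.02 and 6.07, and arrays correlated at r = 0.987 to 0.994 between the groups and 0.993 to 0.996 within them. The mesenchymal genes of the line were bright (mean over VIM, CDH2, ZEB1, FN1 and SPARC 10.19 to 10.32 over the 8 arrays), and 3 of these 5 were called, CDH2 lower (−0.38) and SPARC (0.37) and ZEB1 (0.27) higher in suspension. Of 7 luminal and epithelial markers ESR1, PGR and CDH1 lay below 5.28, the 25th percentile of gene means, which serves as a mark of low signal. ERBB2, EPCAM, KRT19 and GATA3 lay above it, and GATA3 was called higher (8.17 attached, 8.65 suspended, adjusted p = 2.05e-05). Of 9 measured leukocyte, endothelial and adipocyte markers, 5 lay below that mark and 1, CD14, was called (5.50 attached, 5.72 suspended, adjusted p = 0.0467). The mean over the 3 adipocyte markers was 5.34 to 5.54 attached and 5.54 to 5.63 suspended, with none of the 3 called. Over all tested genes 20.6% were called in either direction, which is the background for these marker calls. The part of these marker shifts in the results below was not tested. Because RNA was pooled over each culture, more transcript per cell and more cells with the transcript cannot be told apart.

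Of the 40 genes, 10 rose and 2 fell in suspension, and 28 did not pass the test. The background is 10.4% of all tested genes called higher and 10.2% called lower (20.6% in either direction). The share that rose, 25%, was above this background and the share that fell, 5%, below it. The 40 genes were chosen with earlier results of these data known, so these shares are descriptions. Brighter genes were called more often, and 39 of the 40 lay above the median signal. Testing only genes above that median called 42% of 9208 genes (1815 higher, 2055 lower) and 18 of the 39 (14 higher, 4 lower). The background for genes of like signal is therefore higher than 20.6%, and in either direction the share of the 39 was near that 42%. The median difference of the 40 was 0.068, against 0.024 over all genes, and the median absolute difference was 0.12, against 0.092. No member reached a 2-fold difference, and 4 of the 10 rises exceeded 1.25-fold: WIPI1, GABARAPL1, FOXO1 and NBR1. The rises fell in several steps of the pathway. The share called in either direction was 14.3% in the PI3K complex, 16.7% in the ULK complex and 20% among ATG2, ATG9 and WIPI genes. It was 25% among ATG4 proteases, 33.3% among conjugation genes, 40% among ATG8 proteins, 60% among receptors and 50% for the 2 FOXO factors. These roles hold 2 to 7 genes, so 1 call moves a share far.

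**Figure D1:**
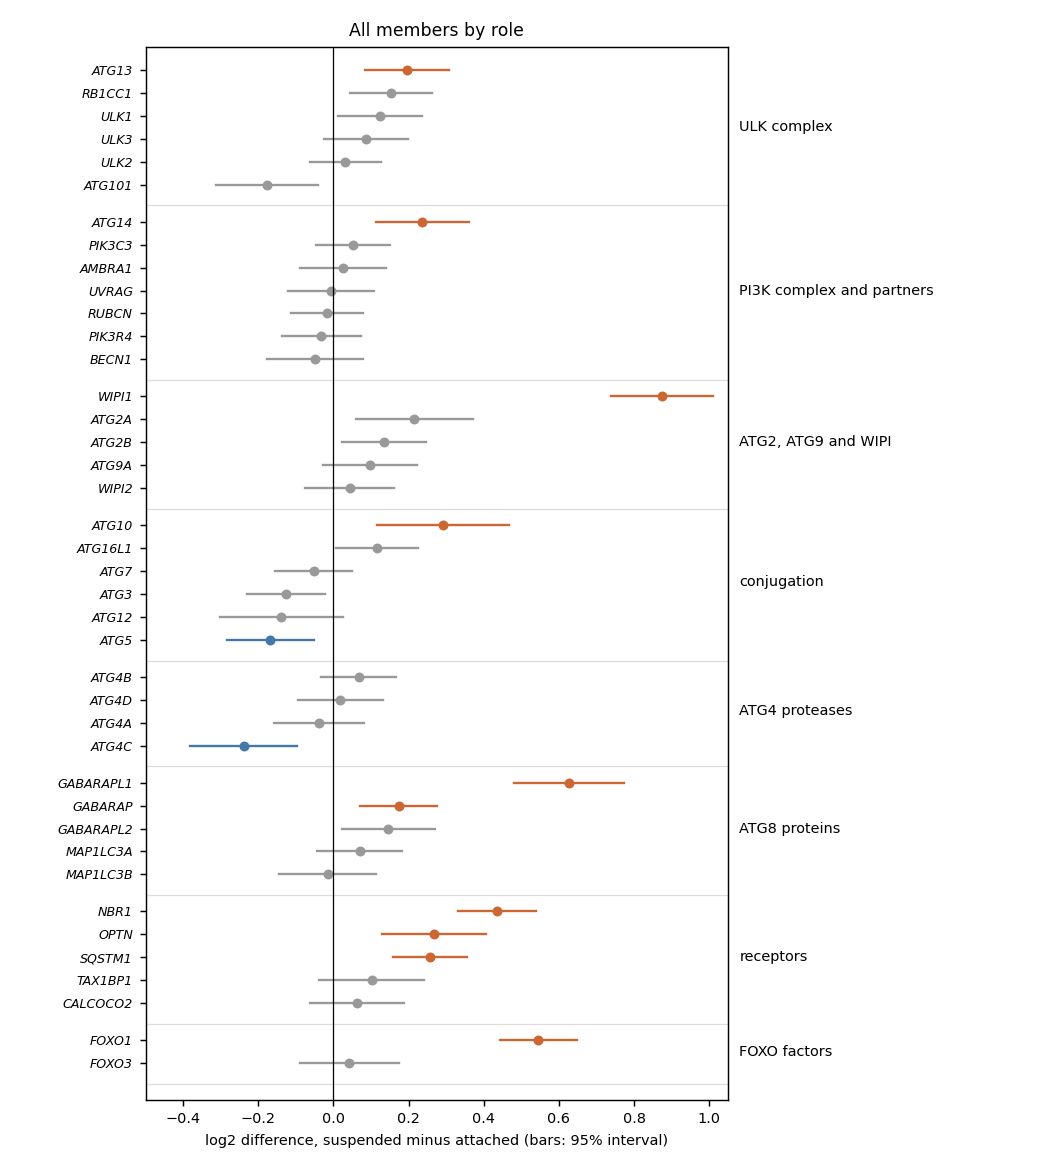
Log2 difference (suspended minus attached, horizontal axis) of each of the 40 genes, ordered within its role. Points are means over 4 against 4 arrays and bars the 95% interval from limma; orange genes were called higher, blue lower and grey not called. WIPI1 at 0.88, GABARAPL1 at 0.63, FOXO1 at 0.55 and NBR1 at 0.43 stand to the right of the rest, and the 2 genes called lower are ATG4C and ATG5.

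RefSeq promoter windows (GRCh38.p14) were at hand for 36 of the 40 genes, among them all 12 that were called. The 250 bases before the start site are shown for WIPI1 and GABARAPL1, the largest rises, and for ATG14, the one gene that rose with a CACGTG in these bases. They are written from 5′ to 3′ on the gene's strand. Capitals mark CACGTG, the core of the element bound by the lysosomal and autophagy regulator TFEB, or TGACGTCA, the cyclic AMP response element.
WIPI1 (chr17:68457497-68457746, minus strand): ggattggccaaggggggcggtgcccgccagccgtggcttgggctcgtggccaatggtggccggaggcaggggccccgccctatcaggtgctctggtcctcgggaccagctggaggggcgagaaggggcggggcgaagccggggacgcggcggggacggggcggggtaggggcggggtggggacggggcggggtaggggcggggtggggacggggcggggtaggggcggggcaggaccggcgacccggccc
GABARAPL1 (chr12:10212627-10212876, plus strand): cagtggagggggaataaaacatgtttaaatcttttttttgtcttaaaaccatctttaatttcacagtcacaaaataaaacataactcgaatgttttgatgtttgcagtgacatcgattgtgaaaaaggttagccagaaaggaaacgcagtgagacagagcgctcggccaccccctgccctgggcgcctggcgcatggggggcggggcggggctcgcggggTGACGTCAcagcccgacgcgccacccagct
ATG14 (chr14:55411831-55412080, minus strand): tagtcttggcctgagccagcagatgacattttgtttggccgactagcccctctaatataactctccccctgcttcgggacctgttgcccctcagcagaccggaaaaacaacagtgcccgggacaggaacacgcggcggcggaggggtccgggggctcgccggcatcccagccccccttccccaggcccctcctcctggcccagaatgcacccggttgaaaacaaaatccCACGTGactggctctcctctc
The CACGTG of ATG14 begins 21 bases before the start site, and the TGACGTCA of GABARAPL1 begins 30 bases before it. The WIPI1 window holds none of the motifs searched and is 79.6% G and C, against 51.6% for GABARAPL1 and 62.0% for ATG14.

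Across the 36 genes with a window each of these motifs was found in 0 to 3 genes, too few to tell their frequency from that elsewhere. A gene with several windows, as 9 of the 36 had, counted if any of them held the motif. CACGTG, searched on both strands, was found in 3 of 36 (8.33%; ATG14, ATG3 and ULK3) and in 9.80% of tested genes with a window, and of the 10 genes that rose 1 held it. The longer TCACGTGA, which contains CACGTG, was found in 0 of 36 and in 1.54% of tested genes. GTAAACA, a forkhead motif of the kind FOXO factors bind, was found in CALCOCO2 alone (2.78%, against 3.11%). The AP-1 motif TGAGTCA was found in FOXO3 alone (2.78%, against 4.58%). TGACGTCA, searched after its presence in GABARAPL1 had been seen, was found in that gene alone (2.78%, against 2.83%). A match is a match of letters in this window and does not show binding, and the absence of one says nothing of sites elsewhere.

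Among the 6 genes of the ULK complex, which receives signals from the nutrient sensor mTORC1 and from AMPK, ATG13 rose and none fell. ATG13 encodes the adaptor that links the kinase to its partners. Its signal was 8.49, 8.47, 8.42 and 8.47 in the attached arrays and 8.62, 8.76, 8.69 and 8.58 in the suspended arrays. All suspended values lay above all attached ones, by a small step (1.15-fold; log2 difference 0.20, SE 0.051, adjusted p = 0.0179). Without attached replicate 3 ATG13 was not called (0.18, adjusted p = 0.0576). With arrays aligned on the median of the tested genes it was not called either (0.15, adjusted p = 0.0965).

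The scaffold RB1CC1 (also FIP200) differed by 0.15 (SE 0.050), with an adjusted p of 0.0503 just outside the threshold. Its suspended arrays (8.17 to 8.30) lay above its attached arrays (8.05 to 8.14), and it was called without suspended replicate 4 (0.18, adjusted p = 0.0417) and under 5 of the 10 other settings tried (adjusted p from 0.0172). ATG101, which stabilises ATG13, went the other way at −0.18 (adjusted p = 0.0652), with attached arrays at 7.42 to 7.66 and suspended arrays at 7.25 to 7.42 that did not overlap, and was called lower under 4 of the 10 other settings (adjusted p from 0.0270). The kinases themselves, ULK1 (0.12), ULK2 (0.032) and ULK3 (0.087), were not called. The 95% interval for ULK1 ran from 0.012 to 0.23.

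In the PI3K complex, ATG14, the subunit that directs the lipid kinase to sites of autophagosome formation, was the gene called among 7. Its signal was 6.74, 6.70, 6.75 and 6.84 attached and 6.86, 7.03, 7.08 and 7.01 suspended. The lowest suspended array, replicate 1, was close to the highest attached array, replicate 4, and the groups did not overlap (1.18-fold; log2 difference 0.24, SE 0.057, adjusted p = 0.0115). ATG14 kept its call in all 8 refits that left out 1 array (0.21 to 0.28). The catalytic subunit PIK3C3 (0.052), its regulatory partner PIK3R4 (−0.032) and the scaffold BECN1 (−0.049) were not called. The same holds for the alternative subunit UVRAG (−0.0066), the inhibitor RUBCN (−0.017) and the BECN1-binding AMBRA1 (0.026). For these 6 the 95% intervals lay between −0.18 and 0.15, which leaves room for changes of that size.

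WIPI1 was the largest difference among the 40 genes. It encodes a protein that binds the lipid made by the PI3K complex on the forming membrane. Its signal was 7.63, 7.77, 7.76 and 7.70 in the attached arrays and 8.60, 8.52, 8.50 and 8.74 in the suspended arrays. The gap between the groups was several times the spread within them (1.83-fold; log2 difference 0.88, SE 0.062, adjusted p = 2.54e-06). By absolute difference WIPI1 ranked 103rd among the 18417 genes.

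Its paralog WIPI2, which recruits the conjugation machinery through ATG16L1, had attached arrays at 7.12 to 7.27 and suspended arrays at 7.15 to 7.32. It was not called (0.043, 95% interval −0.075 to 0.16), and the difference between the paralogs was not tested. The lipid transfer proteins ATG2A (0.22, adjusted p = 0.0523) and ATG2B (0.13, adjusted p = 0.0882) and the lipid scramblase ATG9A (0.097) were not called. For ATG2A the overlap came from suspended replicate 2, at 6.60, below attached replicate 2, at 6.69. ATG2A was called without either of these arrays (0.28, adjusted p = 0.00842 without the suspended one, and 0.25, adjusted p = 0.0388 without the attached one). A second ATG2B probe set gave 0.19 (adjusted p = 0.0628 over all probe sets), and the mean of both was called (0.16, adjusted p = 0.0415).

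Of the 6 conjugation genes 1 rose, 1 fell and 4 were not called. ATG10, the enzyme that transfers ATG12 to ATG5, rose and had the largest standard error of the 40. Its signal was 6.49, 6.31, 6.52 and 6.27 attached and 6.50, 6.80, 6.67 and 6.79 suspended. Suspended replicate 1 lay below attached replicate 3, so the groups overlapped (1.22-fold; log2 difference 0.29, SE 0.080, adjusted p = 0.0230). The call was lost when suspended replicate 2 or 4 or attached replicate 2 or 4 was left out (0.25 to 0.26, adjusted p = 0.0579 to 0.0713).

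ATG5, the acceptor of ATG12, fell. Its signal was 8.43, 8.49, 8.59 and 8.48 attached and 8.40, 8.35, 8.26 and 8.31 suspended. Suspended replicate 1 and attached replicate 1 were nearly level (log2 difference −0.17, SE 0.052, adjusted p = 0.0427). In 6 of 8 refits that left out 1 array ATG5 was no longer called, namely when suspended or attached replicate 2, 3 or 4 was left out (−0.17 to −0.14, adjusted p = 0.0624 to 0.129). It was not called after quantile normalization either (−0.14, adjusted p = 0.103). The ATG8-conjugating enzyme ATG3 had suspended arrays (9.04 to 9.13) below all attached arrays (9.16 to 9.27) and was not called (−0.13, adjusted p = 0.0844). ATG16L1, which places the conjugating complex on the membrane, had suspended arrays (6.62 to 6.65) above all attached arrays (6.43 to 6.60) and was not called (0.12, adjusted p = 0.127). The activating enzyme ATG7 (−0.052) and ATG12 (−0.14) were not called either.

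Of the 4 ATG4 proteases, which trim ATG8 proteins before conjugation and release them afterwards, ATG4C fell. Its signal was 8.28, 8.10, 8.37 and 8.31 attached and 8.09, 8.04, 8.04 and 7.92 suspended. Attached replicate 2 lay just above the highest suspended array (1.18-fold lower; log2 difference −0.24, SE 0.065, adjusted p = 0.0222). The call was lost when suspended replicate 4 or attached replicate 1, 3 or 4 was left out (−0.23 to −0.20, adjusted p = 0.0557 to 0.0721). Over all 8 refits the number of the 40 genes called lower ran from 0 to 2, and it was 0 when suspended replicate 4 or attached replicate 3 or 4 was left out and 1 when suspended replicate 2 or 3 or attached replicate 1 or 2 was. ATG4A (−0.040), ATG4B (0.067) and ATG4D (0.018) were not called, and a second ATG4B probe set gave 0.050.

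Among the 5 ATG8 proteins the GABARAP branch held both calls. GABARAPL1 encodes a GABARAP-type ATG8 protein that anchors receptors on the autophagosome. Its signal was 7.40, 7.41, 7.40 and 7.20 in the attached arrays and 7.99, 8.08, 8.01 and 7.83 in the suspended arrays. Replicate 4 was the lowest array in both groups, and the groups stood well apart (1.54-fold; log2 difference 0.63, SE 0.067, adjusted p = 5.61e-05).

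GABARAP itself, a bright probe set, had attached values of 11.84, 11.78, 11.80 and 11.79 and suspended values of 11.89, 12.00, 12.02 and 12.01. The groups did not overlap, with a small step between them (1.13-fold; log2 difference 0.17, SE 0.046, adjusted p = 0.0211). The GABARAP call was lost when suspended replicate 3 or attached replicate 2, 3 or 4 was left out (0.16 to 0.17, adjusted p = 0.0534 to 0.0575). It was also lost with arrays aligned on the median of all probe sets (0.15, adjusted p = 0.0571) or of the tested genes (0.13, adjusted p = 0.107).

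GABARAPL2 had attached values of 9.21, 9.23, 9.24 and 9.24 and suspended values of 9.31, 9.49, 9.43 and 9.26. All suspended arrays were higher, but they were spread more widely than the attached arrays (SD 0.11 against 0.015) and the gene was not called (0.15, adjusted p = 0.0970). Without suspended replicate 4 it was called (0.18, adjusted p = 0.0407). In the LC3 branch neither gene was called. MAP1LC3A had attached values of 7.06, 7.08, 7.14 and 7.14 and suspended values of 7.28, 7.16, 7.11 and 7.15 (0.069, 95% interval −0.043 to 0.18). MAP1LC3B had attached values of 6.54, 6.62, 6.58 and 6.53 and suspended values of 6.64, 6.59, 6.59 and 6.39 (−0.016, 95% interval −0.14 to 0.11). A further probe set annotated to both MAP1LC3B and its near copy MAP1LC3B2 was brighter, at 10.32 to 10.45 attached and 10.22 to 10.35 suspended, and was not called either (−0.087, adjusted p = 0.336 over all probe sets). The difference between the branches was not tested.

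**Figure D2:**
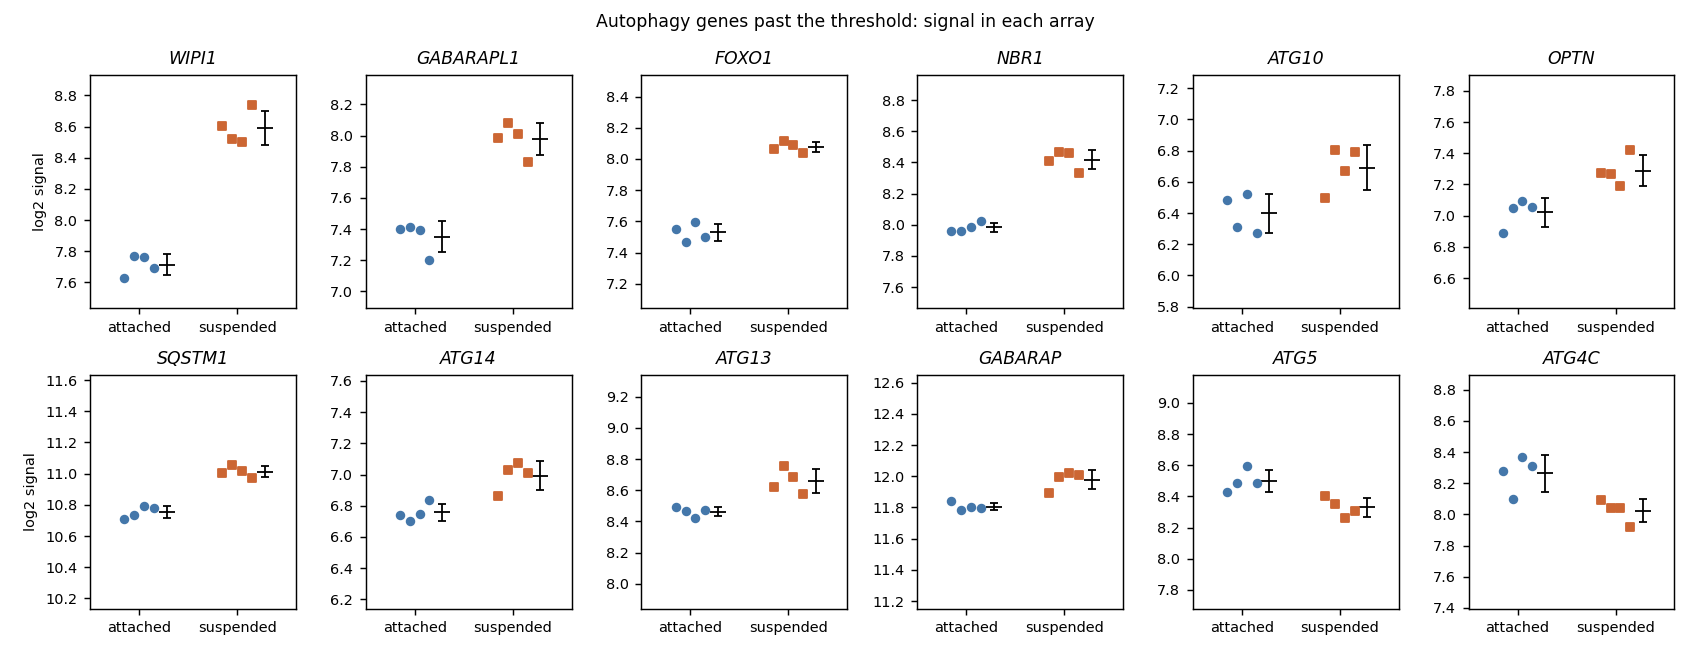
Log2 signal (vertical axis, every panel spanning the same range) of the 12 called genes in each attached (blue circles) and suspended (orange squares) array; black bars are the mean ± SD of 4 arrays. In WIPI1, GABARAPL1, FOXO1, NBR1 and SQSTM1 the gap between groups exceeds the spread within them. The groups overlap in ATG10 and nearly touch in ATG5 and ATG4C.

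Of the 5 cargo receptors 3 rose (60%, against 10.4% of all genes) and none fell (against 10.2%). The share that rose was the largest of any role with 3 or more genes, but with 5 genes it rests on few calls. All 5 lay above the median signal, where the background is higher. Testing only genes above that median called 1815 of 9208 genes higher and 2055 lower. NBR1, a receptor for ubiquitin-tagged cargo and peroxisomes, had attached values of 7.96, 7.96, 7.99 and 8.03 and suspended values of 8.41, 8.47, 8.46 and 8.34. Both groups were tight and far apart (1.35-fold; log2 difference 0.43, SE 0.047, adjusted p = 6.46e-05). SQSTM1, which encodes p62, had attached values of 10.71, 10.73, 10.79 and 10.78 and suspended values of 11.00, 11.06, 11.02 and 10.97. The groups did not overlap (1.20-fold; log2 difference 0.26, SE 0.045, adjusted p = 0.00163).

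OPTN, the receptor optineurin, had attached values of 6.89, 7.05, 7.09 and 7.05 and suspended values of 7.27, 7.27, 7.19 and 7.42. Suspended replicate 3 was nearest to the attached arrays and still above them (1.20-fold; log2 difference 0.27, SE 0.063, adjusted p = 0.0105). NBR1, SQSTM1 and OPTN each kept their call in all 8 refits that left out 1 array. CALCOCO2 (also NDP52), a receptor for invading bacteria and damaged mitochondria, had 1 high suspended array, replicate 2 at 7.41, beside 7.17, 7.23 and 7.18, against 7.16 to 7.21 attached (0.063, adjusted p = 0.490). TAX1BP1, related to CALCOCO2, was not called (0.10, adjusted p = 0.300).

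FOXO1, a transcription factor that insulin signalling holds out of the nucleus, had attached values of 7.55, 7.47, 7.60 and 7.50 and suspended values of 8.06, 8.11, 8.09 and 8.04. The suspended arrays were the tighter group, and the groups stood far apart (1.46-fold; log2 difference 0.55, SE 0.047, adjusted p = 1.04e-05). FOXO3 was measured at low signal, with attached values of 5.21, 5.09, 5.05 and 5.26 and suspended values of 5.23, 5.24, 5.09 and 5.21. It was the one gene of the 40 below 5.28 and was not called (0.042, 95% interval −0.090 to 0.17). A brighter probe set annotated to both FOXO3 and its copy FOXO3B read 9.56 to 9.63 attached and 9.71 to 9.86 suspended. Its groups did not overlap, and it passed the threshold as higher in suspension (0.18, adjusted p = 0.0426 by limma over all probe sets). The FOXO3 locus and its copy cannot be told apart in that probe set.

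Taking separation of the arrays instead of a test, 17 of the 40 genes had groups that did not overlap, 13 with suspended higher and 4 with suspended lower. Over all genes 24.8% did not overlap, 12.7% with suspended higher and 12.2% with suspended lower. Of the 12 called genes 11 were separate in this sense, ATG10 being the other one. Separation and calls are read from the same values, so the one is no independent check of the other. A further 6 were separate without being called: ULK1, RB1CC1, ATG16L1 and GABARAPL2 with suspended higher, ATG101 and ATG3 with suspended lower. Within groups, SDs of the 40 genes ran from 0.010 to 0.13 attached and from 0.015 to 0.14 suspended, with a median of 0.066, against 0.080 over all genes. Among suspended arrays replicate 2 was the highest of its group for 19 of the 40 genes and replicate 4 the lowest for 15.

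**Figure D3:**
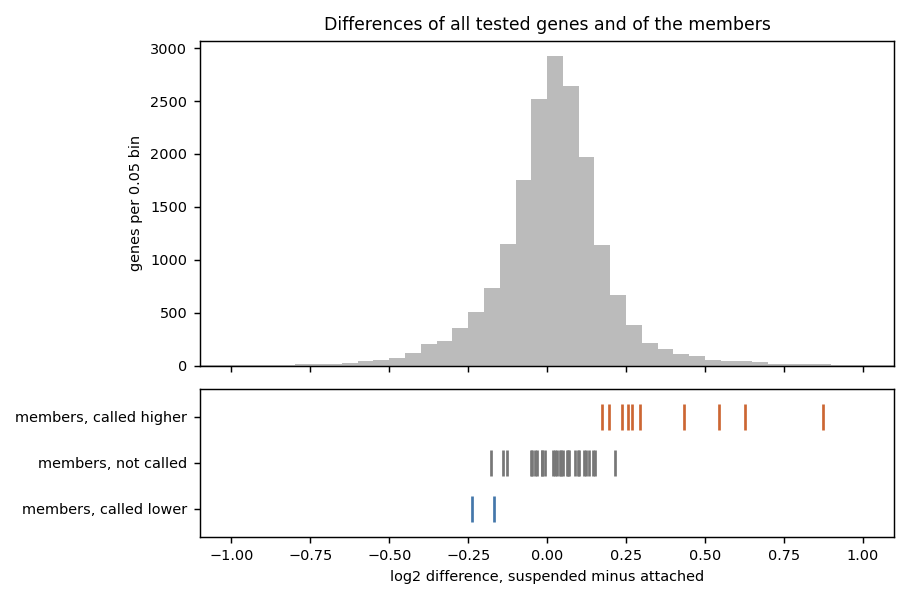
Upper panel: number of tested genes (vertical axis) per bin of log2 difference (horizontal axis, suspended minus attached), with genes beyond ±1.1 not drawn. Lower panel: the same difference for each of the 40 genes, one tick a gene, split into called higher, not called and called lower. The 28 genes not called lie within the central peak, and the 4 largest rises lie in its right tail.

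Around these 40 genes, 6 lists of related genes were read from the same fit. The shares of all genes set beside them are not matched for signal. Brighter genes were called more often (1815 of 9208 higher and 2055 lower when only genes above the median were tested). Of 27 measured genes of mTORC1, AMPK and their regulators 6 rose and 4 fell (22.2% and 14.8%, against 10.4% and 10.2% of all genes). The mTORC1 inhibitor DDIT4 (0.62, adjusted p = 7.61e-05) and the Rag GTPase RRAGB (0.42, adjusted p = 9.97e-04) led the rises, and the other 4 were 0.20 to 0.32. The falls were the AMPK subunits PRKAB2 (−0.34, adjusted p = 0.00152) and PRKAG2 (−0.24, adjusted p = 0.00690), the stress-induced SESN2 (−0.27, adjusted p = 0.0308) and MTOR, the kinase itself (−0.14, adjusted p = 0.0482). The MTOR call was kept without attached replicate 3 and in no other refit (−0.17 to −0.13 over all 8), and SESN2 was not called when suspended replicate 1 or attached replicate 2 or 3 was left out (−0.32 to −0.21 over all 8). The number of falls was 2 without attached replicate 2 or without suspended replicate 1.

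TFEB, TFE3, MITF and TFEC, the factors that drive lysosomal and autophagy genes, and the repressor ZKSCAN3 were not called by limma, with differences of −0.044 to 0.11 and 0 of 5 at an unadjusted p under 0.05. It was 0 of 5 as well under the other settings that tested all 5. The filters on low signal left out TFEC and ZKSCAN3, and the stricter one TFEB besides. TFEB itself was at 5.48 attached and 5.57 suspended (adjusted p = 0.416). That was below the adipocyte markers ADIPOQ (5.68 attached, 5.78 suspended) and PLIN1 (5.76 attached, 5.90 suspended) and above LEP (4.89 attached, 5.04 suspended). Whether TFEB transcript was detected was not tested.

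Of 24 further genes of autophagosome formation 5 rose and 2 fell (20.8% and 8.33%, against the same 10.4% and 10.2%). TP53INP1, a stress-induced protein that binds ATG8 proteins (0.56, adjusted p = 6.91e-05), its relative TP53INP2 (0.34, adjusted p = 0.00465), WDR45, a WIPI-family protein also called WIPI4 (0.42, adjusted p = 0.00198), ZFYVE1, which marks the membrane where autophagosomes form (0.38, adjusted p = 0.00152), and TECPR2 (0.19, adjusted p = 0.0228) rose. EPG5, a tether for fusion with late endosomes (−0.46, adjusted p = 5.26e-05), and EI24 (−0.13, adjusted p = 0.0436) fell. The call of TECPR2 was lost when suspended replicate 1 or 4 or attached replicate 1 or 3 was left out (0.16 to 0.22 over all 8 refits), and that of EI24 when any 1 of the 8 arrays was (−0.14 to −0.12), which left 1 fall.

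Of 16 genes of fusion with lysosomes 4 rose and none fell (25% and 0%, against 10.4% and 10.2% of all genes). They were the lysosomal membrane protein LAMP2 (0.36, adjusted p = 0.00125), the SNARE protein STX17 (0.22, adjusted p = 0.0172) and the tethering subunits VPS41 (0.20, adjusted p = 0.0118) and VPS39 (0.19, adjusted p = 0.0264). Without attached replicate 4 the number of rises was 2, STX17 and VPS39 being lost (over all 8 refits 0.18 to 0.25 for STX17 and 0.17 to 0.23 for VPS39). VPS39 was also lost when suspended replicate 2 or 4 or attached replicate 1 or 3 was left out. The number of rises depended on scaling, at 7 with quantile normalization and 1 with arrays aligned on the median of the tested genes.

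Of 18 further selective receptors 7 rose and 2 fell (38.9% and 11.1%, against 10.4% and 10.2%, so that the share of falls was near the background). CALCOCO1, a receptor for the endoplasmic reticulum and Golgi and a relative of CALCOCO2, rose by 0.59 (adjusted p = 7.01e-05). The mitophagy receptors BNIP3L and BNIP3 went in opposite directions, BNIP3L rising (0.28, adjusted p = 0.00128) and BNIP3 falling (−0.44, adjusted p = 7.77e-05). NUFIP1, described as a ribosome receptor, fell as well (−0.39, adjusted p = 0.0103). The remaining 5 rises were 0.16 to 0.25, and TOLLIP, WDFY3 and FKBP8 among them were called in 4, 1 and 2 of the 8 refits. The number of rises was 4 without attached replicate 1 or without suspended replicate 4. With arrays aligned on the median of the tested genes 4 rose and 4 fell.

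Of 19 measured relatives and known targets of FOXO factors 10 rose and 1 fell, with a median difference of 0.24. The pro-apoptotic BCL2L11 (0.82, adjusted p = 2.97e-06), the ubiquitin ligase subunit FBXO32 (0.61, adjusted p = 6.05e-06) and the cell cycle inhibitor CDKN1B (0.54, adjusted p = 8.20e-06) led the rises, and TXNIP fell (−0.35, adjusted p = 0.00517). Among the smaller rises IRS2 (0.25) was called in 3 of the 8 refits. The shares were 52.6% higher and 5.26% lower, against 10.4% and 10.2% of all genes. These lists were drawn up with earlier results of these data known, so their counts are descriptions.

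**Figure D4:**
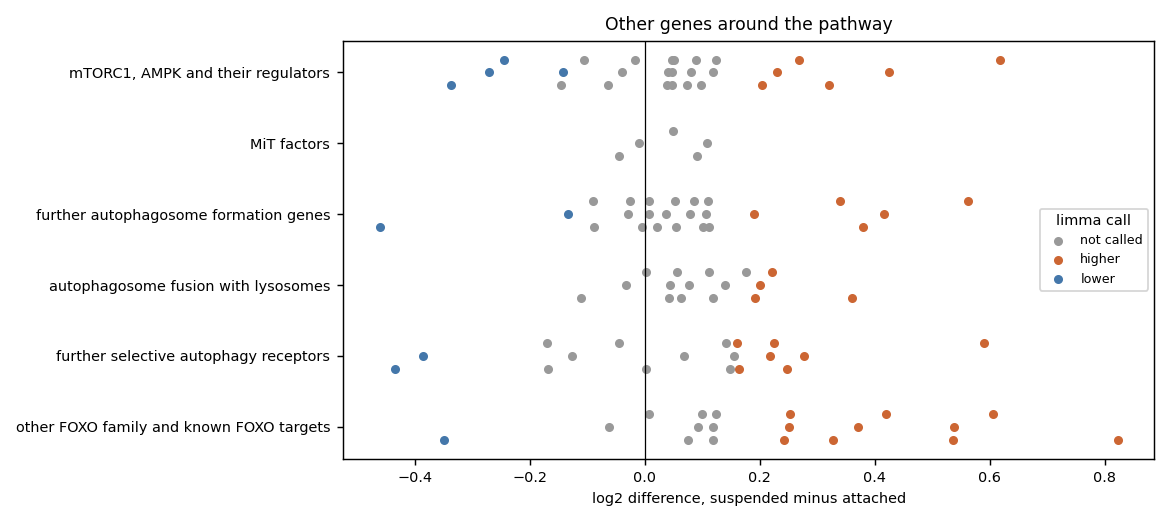
Log2 difference (suspended minus attached, horizontal axis) of each measured gene of the 6 related lists (rows), one point a gene, coloured by its limma call; the vertical position within a row has no meaning. The list of FOXO relatives and targets holds 10 genes called higher and 1 called lower, and none of the 5 MiT factors and their repressor was called.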

How the data were processed

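Total RNA from 8 BT549 cultures was measured on gene-level arrays. The authors deposited 1 table of 33297 probe sets by 8 arrays, whose unit, log2 signal, was inferred from the values. The submitters' processing notes name Partek, and its version and how background, normalization and summarisation were done were not given in the sources used here. The labelling kit in the labels is one made for small RNA, so how these arrays were labelled is uncertain. The number of arrays limits the precision. No detection call was used.

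Of the probe sets, 19460 carried 1 gene symbol, 1754 several and 12083 none. A gene with several probe sets took the one brightest on average, giving 18417 genes. The group means entered a two-sided limma test (lmFit, eBayes; limma 3.58.1, R 4.3.3) without covariates, with Benjamini-Hochberg adjustment over all genes and a threshold of 0.05. SE is the moderated standard error. On simulated data with the same 18417 genes recovery was 61% for 100 genes with a 1.25-fold change and 100% for 100 with a 2-fold change, beside 7 false calls. Far fewer genes changed there than the 3787 called in the data, and noise was drawn independently for each gene. Recovery in the data can therefore differ. Genes are named by role: array values for called genes, the ATG8 proteins and FOXO factors, and, of each related list, the 3 called genes with the smallest adjusted p and all called in a direction with 5 or fewer. The members and lists were chosen with earlier results of these data known. Of 119 list entries, 10 had no tested gene and are not analysed here. A comparison of protein sequences was not made. Alternatives tried were the replicate number as a block, 3 further scalings, 2 filters on low signal, 2 treatments of probe sets, another variance estimate, array weights and leaving out each array. Figures used Python 3.11.15 and matplotlib 3.10.9.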

Additional observations from a re-analysis of the deposited data

Results flagged for a closer look

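Each of the 40 genes was screened in each group of 4 arrays for an array far from the other 3, with the gap to its neighbour divided by the range of the group held against Dixon's critical value at 95%. Of 80 groups 5 passed, and chance passes about 1 in 20. The attached array of replicate 4 was low for GABARAPL1, at 7.201 beside 7.396 to 7.413, which widens the difference of that gene; without this array its difference was smaller and it stayed called (0.58, adjusted p = 1.64e-04). The attached array of replicate 4 was high for ATG12, at 7.204 beside 6.916 to 6.961. The attached array of replicate 1 was high for RB1CC1, at 8.143 beside 8.053 to 8.064, and without it the adjusted p of the gene was 0.0504 beside 0.0503 with it. The attached array of replicate 3 was low for ATG7, at 8.199 beside 8.298 to 8.318. The suspended array of replicate 1 was low for ATG9A, at 7.937 beside 8.095 to 8.123.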

How the results depend on the processing

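WIPI1, GABARAPL1, FOXO1, NBR1, SQSTM1, OPTN and ATG14 kept direction and call under all 10 alternatives and all 8 refits without 1 array. Besides the losses without 1 array, the block ended the calls of ATG13, GABARAP, ATG10 and ATG5, quantile normalization that of ATG5, testing every probe set those of ATG10, ATG5 and ATG4C, centring on the median of all probe sets that of GABARAP, and centring on that of the tested genes those of ATG13 and GABARAP. Calls were gained by RB1CC1 (quantile normalization, both filters, trend and robust estimate, array weights), ATG101 (both filters, trend and robust estimate, tested genes' median), ATG2A (both filters, trend and robust estimate), ATG3 (stricter filter, trend and robust estimate, tested genes' median), GABARAPL2 (quantile normalization, stricter filter, trend and robust estimate) and ATG2B (stricter filter, mean of probe sets). The number of the 40 genes called higher ran from 7 to 14 under the 10 alternatives and from 8 to 11 over the refits without 1 array. The share called among everything tested moved too, from 11% with every probe set tested on its own to 42% with genes above the median. The 14 rises belong to that filter, where 1815 of 9208 genes were called higher and 2055 lower. The share was 29.3% with the milder filter, 22.8% with the trend and robust estimate and 16.4% with the block. Of the 40 genes, 2 were called lower as reported, 1 with quantile normalization and 0 with every probe set tested on its own. That number ran from 0 to 2 over the refits. It was 4 with genes above the median, with the trend and robust variance estimate or with arrays centred on the median of the tested genes. That last centring, chosen after seeing the data, moved the share of all calls that were higher from 50.4% to 35.2% (1340 higher, 2472 lower). Same-numbered arrays of the groups did not deviate together (r = −0.198 to 0.0416), so the numbers were not taken as pairs; with the replicate number as a block 7 of the 40 genes were called higher and 1 lower, and 3022 genes in all against 3787. Signs turned in uncalled genes alone: UVRAG (0.015 with quantile normalization and 0.011 with array weights, −0.038 to 0.014 over the refits), RUBCN (0.0012 with quantile normalization), ATG4D (−0.0044 with arrays centred on the median of all probe sets, −0.027 on that of the tested genes, −0.0049 to 0.043 over the refits) and MAP1LC3B (−0.044 to 0.038 over the refits), and, with the tested genes' median, ULK2 (−0.014), AMBRA1 (−0.020), WIPI2 (−0.0026) and FOXO3 (−0.0036). The causes were not tested. FOXO3 was not tested in either filter on low signal, where its level leaves it out.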
